A study of Mus musculus with 4 samples.

Results

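The vascular endothelial growth factor (VEGF) family was examined as 10 listed genes out of 35905 genes with a transcript in the data: the ligands Vegfa, Vegfb, Vegfc, Vegfd and Pgf, the receptor tyrosine kinases Flt1, Kdr and Flt4, and the co-receptors Nrp1 and Nrp2. The genes were chosen by name and not by their measured values, though with earlier results of these data known. All 10 had transcripts and counts, and 9 were abundant enough for the test across all genes, the exception being Flt4. Libraries of oligo-dT captured mRNA were sequenced from cells of the mouse Lewis lung carcinoma line (LLC), sorted as TdTomato-positive and CD45-negative cells from subcutaneous flank tumours of C57BL/6 hosts 4 weeks after implantation. PAD4-DN hosts carried Mrp8Cre and floxed Padi4 alleles (Mrp8Cre+, Padi4fl/fl), so that the gene for peptidylarginine deiminase 4 is deleted where the Mrp8 promoter drives Cre, chiefly in neutrophils. WT hosts carried the same floxed alleles without Cre (Mrp8Cre-, Padi4fl/fl). The deletion thus lies in the host and not in the implanted line. Each group had 2 libraries. No source used here says whether they came from separate animals, and the p-values then describe the spread among the 4 libraries, which may be technical.

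VEGF-A is the main growth signal for blood vessels and acts through the tyrosine kinase VEGFR2, the product of Kdr. VEGFR1, the product of Flt1, binds VEGF-A, VEGF-B and placental growth factor (the product of Pgf), and it is also made as a secreted form that captures ligand. VEGF-C and VEGF-D act through VEGFR3, the product of Flt4, and drive the growth of lymphatic vessels. The neuropilins hold VEGF ligands for these receptors and also bind class 3 semaphorins together with plexins.

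The estimated counts summed to 20036322 and 24142484 in PAD4-DN replicates 1 and 2, and to 23414984 and 25327974 in WT replicates 1 and 2. Padi4 had 6 and 0 counts in the PAD4-DN libraries and 0 and 2 counts in the WT libraries. With the host deletion outside the sorted population, Padi4 gives no check of the labels. The mesenchymal genes Vim and Fn1 and the keratins Krt8 and Krt18 were abundant in every library, with Vim between 3155 and 3598 TPM (a level scaled for transcript length and library size) and Krt8 between 131 and 178 TPM. The epithelial genes Epcam and Cdh1 had at most 6.8 counts in any library. Of 6 lung lineage genes, Sftpc and Scgb1a1 had no counts, and Foxa2 alone was tested. Foxa2 had 54 and 25 counts in PAD4-DN and 37 and 31 counts in WT, and Napsa 12 and 2 counts in PAD4-DN and 4 and 7 counts in WT. These genes do not bear out a lung epithelial identity, and they give no check of the label, which names cells of the LLC line. Markers of other cell types differed between libraries. The 12 fibroblast markers summed to 6933 and 4407 TPM in PAD4-DN and 4359 and 4916 TPM in WT. Most of each sum was Col3a1, at 2754 to 5100 TPM. Of these markers, Col1a1, Col1a2, Postn, Mfap5, Pi16 and Thy1 were lower in PAD4-DN replicate 2 and WT replicate 1 than in the other libraries. Col1a2 was at 129 and 1.24 TPM in PAD4-DN and 0.421 and 108 TPM in WT. Col3a1, Dcn, Lum, Pdgfra, Fap and Dpt ranged less over the libraries. The 9 erythroid and platelet genes summed to 507 and 16.7 TPM in PAD4-DN and 138 and 20.6 TPM in WT. The summed level of 8 pan-leukocyte genes was 32.9 and 5.41 TPM in the PAD4-DN libraries and 13.9 and 17.4 TPM in the WT libraries, and that of 12 macrophage and monocyte genes was 106 and 14.7 TPM in PAD4-DN and 49.0 and 55.2 TPM in WT.

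Several of these genes are made as more than 1 coding form, and the results below turn on which form was counted. Flt1-202 encodes the membrane receptor of 1333 codons, and Flt1-203 the secreted form of 688 codons, which shares the first 657 codons and then reads into other sequence without the membrane-spanning and kinase parts. Vegfb-201 (207 codons) and Vegfb-202 (188 codons) share 136 codons. Vegfb-201 then has 101 extra bases, which shift the reading frame and give the freely secreted form in place of the heparin-binding one. Vegfa-201 (146 codons) lacks the 132 bases of heparin-binding sequence that Vegfa-202 (368 codons, read from a start upstream of the usual one) contains. The coding stretches where the forms part are shown for these pairs, from the GENCODE M21 transcripts, whose lengths equal those in the deposited files. The coding bases just before the forms part are in lower case, and capitals mark the bases of each form from that point on. The capitals of Vegfb-202 and of Vegfa-201 also occur in the other form of the gene after its extra bases, for Vegfb in another reading frame, while those of Flt1-203 do not occur in the coding sequence of Flt1-202. Flt1 lies on chromosome 5, Vegfb on chromosome 19 and Vegfa on chromosome 17.
Flt1-202: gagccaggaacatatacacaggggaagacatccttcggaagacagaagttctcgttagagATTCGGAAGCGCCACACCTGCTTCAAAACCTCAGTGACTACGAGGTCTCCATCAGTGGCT
Flt1-203: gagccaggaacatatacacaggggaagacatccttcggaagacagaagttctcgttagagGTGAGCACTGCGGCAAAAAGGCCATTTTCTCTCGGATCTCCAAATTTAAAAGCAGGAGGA
Vegfb-201: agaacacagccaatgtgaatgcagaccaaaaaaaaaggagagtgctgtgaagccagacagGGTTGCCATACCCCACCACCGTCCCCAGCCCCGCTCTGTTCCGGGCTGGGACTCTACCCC
Vegfb-202: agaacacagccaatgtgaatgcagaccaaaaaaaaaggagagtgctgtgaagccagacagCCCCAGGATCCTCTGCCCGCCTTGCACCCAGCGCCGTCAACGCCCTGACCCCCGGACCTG
Vegfa-201: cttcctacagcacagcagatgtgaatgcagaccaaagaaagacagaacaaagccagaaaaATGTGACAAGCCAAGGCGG
Vegfa-202: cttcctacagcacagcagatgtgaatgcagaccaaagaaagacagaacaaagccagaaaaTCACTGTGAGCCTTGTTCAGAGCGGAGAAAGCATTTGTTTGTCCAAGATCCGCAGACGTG

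Both neuropilins and 4 of the 5 VEGF ligands were above every tyrosine kinase receptor of the family, and Vegfc overlapped with Flt1. Nrp2 was the most abundant member on the TPM scale, with a mean level of 83.0 ± 19.8 TPM (SD, n = 4 libraries), above 93.5% of 21850 protein-coding genes. Vegfa followed at 46.5 ± 8.83 TPM, Vegfb at 41.0 ± 5.50 TPM and Vegfd at 36.8 ± 6.82 TPM. Nrp1 was at 23.2 ± 2.85 TPM, Pgf at 21.4 ± 10.1 TPM, Vegfc at 7.85 ± 1.38 TPM and Flt1 at 5.33 ± 0.915 TPM. Kdr and Flt4 were at 0.175 ± 0.103 and 0.0762 ± 0.0565 TPM. In this order the ranges over the 4 libraries were separate at 3 steps, between Nrp2 and Vegfa, between Vegfd and Nrp1, and between Flt1 and Kdr. The ranges of all other neighbours overlapped.

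**Figure D1:**
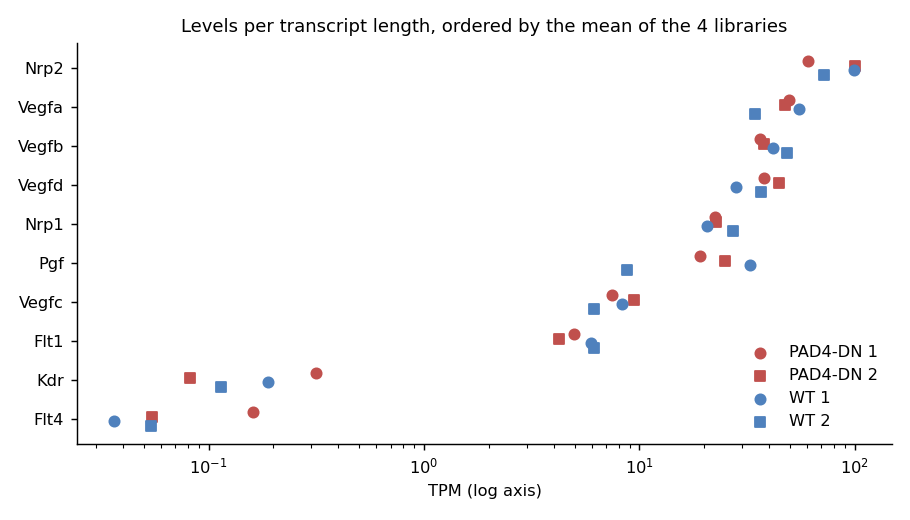
Level of each VEGF ligand, receptor and neuropilin gene in TPM (log axis) in the 2 PAD4-DN and 2 WT libraries, with genes ordered by the mean of the 4 libraries. Nrp2 lies between 60.6 and 100.5 TPM, while Kdr stays at or below 0.314 TPM and Flt4 at or below 0.160 TPM.

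Among the ligands, Vegfa held 32.9% and 28.8% of the summed ligand TPM in the PAD4-DN libraries and 33.3% and 25.5% in the WT libraries. Vegfb was the largest ligand in WT replicate 2, with 36.2% of the sum, where it held 24.1% and 23.1% in PAD4-DN and 25.1% in WT replicate 1. Vegfd, the lymphatic ligand encoded on the X chromosome, held 25.4% and 27.1% in PAD4-DN and 16.9% and 27.2% in WT. The summed ligand level was 150.0 and 164 TPM in PAD4-DN and 166 and 134 TPM in WT, so the groups overlapped. The place of Vegfa in this order depends on its short transcript models. With the 3 longest coding models alone, Vegfa was at 30.1 and 37.5 TPM in PAD4-DN and 43.7 and 21.9 TPM in WT, while the 2 coding forms of Vegfb were at 35.5 and 37.2 TPM in PAD4-DN and 40.3 and 48.3 TPM in WT. On these values Vegfa was below Vegfb in PAD4-DN replicate 1 and WT replicate 2 and above it in PAD4-DN replicate 2 and WT replicate 1.

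With edgeR's quasi-likelihood test and Benjamini-Hochberg adjustment, 0 of the 9 tested members passed an adjusted p of 0.05 between PAD4-DN and WT, as did 0% of the 13718 genes tested. Flt1 and Vegfb, a receptor and a ligand that binds it, had an unadjusted p under 0.05, against 2.65% of all tested genes (364 of 13718). DESeq2 on the same genes called 11 genes (0.0802%), and edgeR without the low-count filter called 10 of 21921 (0.0456%), with 0 members of the family in either. The libraries of the 2 groups did not overlap for 3 of the 9 members, Flt1, Vegfb and Vegfd, against 32.8% of all tested genes, so this count is at the background. The median log2 fold change of the members, PAD4-DN over WT, was −0.02, with 3 members positive and 6 negative, and that of all tested genes was 0.01. The sign of the members' median was not stable: it was 0.01 with limma-voom, 0.04 on log2(TPM + 1) and 0.06 with a replicate block, and between −0.21 and 0.27 with single libraries left out. With 2 libraries a group, the smallest two-sided p of an exact permutation test is 0.333.

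**Figure D2:**
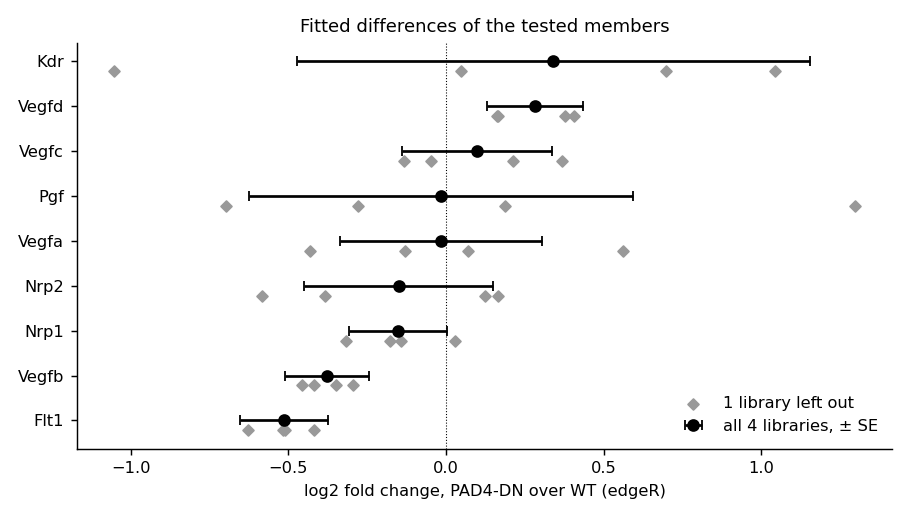
Fitted log2 fold change, PAD4-DN over WT, of the 9 tested members (black points, ± SE of the edgeR fit) and the same value with each library left out in turn (grey diamonds). Flt1 and Vegfb stay below 0 and Vegfd above 0 in all of these fits, while Vegfa, Pgf, Nrp2, Nrp1, Vegfc and Kdr cross 0.

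Flt1 was at 21.8 and 18.9 CPM (counts scaled to library size, in TMM-scaled CPM) in the PAD4-DN libraries and at 28.9 and 29.1 CPM in the WT libraries. The groups did not overlap, with PAD4-DN the lower, as was so for 17.4% of all tested genes. The log2 fold change was −0.51 (SE 0.14, unadjusted p = 0.0121, adjusted p = 0.988 by edgeR), that is 0.700-fold. It stayed negative in all 13 alternative fits, between −0.63 and −0.34, with adjusted p no lower than 0.6805. Its unadjusted p was above 0.05 in 4 of them, at 0.143 on log2(TPM + 1), 0.136 on log2(TPM + 0.1), 0.0677 without WT replicate 1 and 0.0741 without WT replicate 2. Of 11 endothelial marker genes tested, 9 were also fitted lower in PAD4-DN, as were 6662 of all 13718 tested genes. The median log2 fold change of the 11 was −0.22 against 0.01 for all tested genes, with 0 at an unadjusted p under 0.05. Pecam1, with the smallest p of the 11, was among the 2 fitted higher (log2 fold change 0.59). It was at 57.7 and 33.2 CPM in PAD4-DN and 33.4 and 26.8 CPM in WT. By summed TPM the endothelial list was highest in PAD4-DN replicate 1. Only 1 of the 11 had groups that did not overlap, against 32.8% of all tested genes. This was Ecscr, at 2.73 and 1.76 CPM in PAD4-DN and 3.74 and 3.69 CPM in WT. The part of endothelial cells in the Flt1 values was not tested.

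Both coding forms of Flt1 were lower in PAD4-DN. The membrane form, Flt1-202, was at 14.7 and 12.5 CPM in PAD4-DN and at 18.9 and 21.6 CPM in WT. The secreted form, Flt1-203, was at 6.60 and 6.17 CPM in PAD4-DN and at 9.81 and 7.38 CPM in WT. The PAD4-DN libraries lay below the WT libraries for each form, as for 17.4% of all tested genes. The same count over transcripts was not made. Of the TPM of both forms, the secreted form made up 33.0% and 35.1% in PAD4-DN and 36.3% and 27.3% in WT, so its share overlapped between the groups. These transcript values are kallisto's division of reads between forms that share much of their coding sequence, without a test and without its error, which is not given in the sources used here.

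Vegfb, a VEGFR1 ligand, was at 25.02 and 26.4 CPM in PAD4-DN and at 31.5 and 35.3 CPM in WT. The log2 fold change was −0.38 (SE 0.13, unadjusted p = 0.0334, adjusted p = 0.988 by edgeR), that is 0.770-fold. It was negative in all 13 alternative fits, between −0.46 and −0.27. With all 4 libraries, its unadjusted p was above 0.05 by DESeq2 (0.0552) and by edgeR with crossed replicate numbers (0.0570). By limma-trend it was 0.0985 on log2(TPM + 1) and 0.0995 on log2(TPM + 0.1). Without WT replicate 2, the library in which Vegfb was highest, the log2 fold change was −0.30.

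In kallisto's division of reads, the lower Vegfb level lay in 1 of its coding forms, the freely secreted Vegfb-201. The division has no error given here, and no transcript was tested. This transcript was at 14.9 and 14.6 CPM in PAD4-DN and at 21.9 and 22.3 CPM in WT, with little spread inside each group. The heparin-binding form Vegfb-202 was at 10.05 and 11.7 CPM in PAD4-DN and at 9.39 and 13.0 CPM in WT, so the WT libraries lay on either side of the PAD4-DN libraries. Vegfb-201 made up 56.6% and 52.4% of the TPM of both forms in PAD4-DN and 67.3% and 60.2% in WT. The share was lower in both PAD4-DN libraries than in both WT libraries, a difference that was not tested. Among all tested genes the groups did not overlap for 32.8%, and the same count over transcripts was not made. The forms differ by the 101 bases whose start is shown in capitals for Vegfb-201 above.

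**Figure D3:**
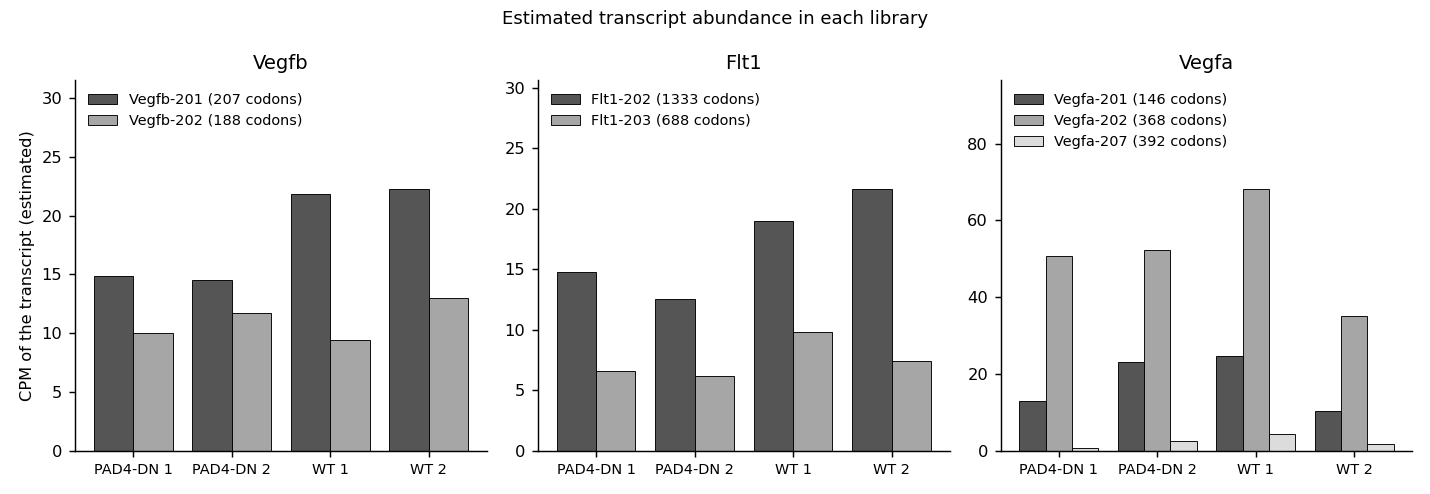
Estimated abundance, in CPM, of the main coding transcripts of Vegfb, Flt1 and Vegfa in each library, with PAD4-DN on the left of each panel. Vegfb-201 is at 14.9 and 14.6 CPM in PAD4-DN and at 21.9 and 22.3 CPM in WT, while Vegfb-202 overlaps between the groups, and the Vegfa forms are all highest in WT replicate 1.

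Vegfd was at 46.8 and 54.6 CPM in PAD4-DN and at 38.2 and 45.2 CPM in WT. Both PAD4-DN libraries lay above both WT libraries, as for 15.4% of all tested genes, with PAD4-DN replicate 1 close to WT replicate 2. The log2 fold change was 0.28 (SE 0.15, unadjusted p = 0.118, adjusted p = 0.988 by edgeR), and it was positive in all 13 alternative fits, between 0.16 and 0.41. Vegfc, the other lymphatic ligand, was at 11.7 and 14.1 CPM in PAD4-DN and at 14.1 and 9.995 CPM in WT. Its groups overlapped, and its log2 fold change was 0.10 (SE 0.24).

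Vegfa showed no separation of the groups, because the WT libraries were the highest and the lowest of the 4. It was at 69.5 and 80.2 CPM in PAD4-DN and at 101 and 50.7 CPM in WT, and the log2 fold change was −0.02 (SE 0.32). Without WT replicate 1 the value was 0.56, and without WT replicate 2 it was −0.43. Pgf had the same order of libraries with a wider spread, at 16.9 and 23.5 CPM in PAD4-DN and at 32.8 and 8.21 CPM in WT, a range of 3.99-fold. Its log2 fold change was −0.01 (SE 0.61). Without WT replicate 1 it was 1.30, and without WT replicate 2 it was −0.70.

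The heparin-binding Vegfa-202 was the main Vegfa form in every library. Of the TPM of the 3 longest coding models, it made up 74.1% and 60.4% in PAD4-DN and 63.5% and 68.1% in WT. The short, diffusible Vegfa-201 made up 23.8% and 34.2% in PAD4-DN and 29.2% and 25.4% in WT, again with overlap. Vegfa-207 (392 codons), which keeps a further basic stretch that holds the ligand to the matrix, was at most 7.31% of that sum in any library. The short transcript model Vegfa-203, of 513 bases, had 9.31 and 2.70 TPM in PAD4-DN and 6.61 and 3.60 TPM in WT from at most 37.8 counts, so the TPM of the whole gene includes signal that rests on few reads.

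Hypoxia is known to induce Vegfa, and many genes of the hypoxia list had the same highest and lowest library. Of 25 hypoxia target genes tested, 12 (48.0%) were highest in WT replicate 1 and lowest in WT replicate 2, against 5.72% of all tested genes. Vegfa and Pgf had this order as well. Vegfc had it on the CPM scale by a margin of 14.11 in WT replicate 1 over 14.09 in PAD4-DN replicate 2, and not by TPM, where it was highest in PAD4-DN replicate 2, at 9.44 TPM, against 8.32 TPM in WT replicate 1. This pattern was looked at after the values had been seen. Of the 12 hypoxia genes, the glucose transporter gene Slc2a1 was at 188 and 300 TPM in PAD4-DN and 379 and 138 TPM in WT. The vasoactive peptide gene Adm, also of the 12, was at 102 and 141 TPM in PAD4-DN and 199 and 73.0 TPM in WT. By TPM, Car12 and Pfkfb4 of the same list ran the other way, lowest in WT replicate 1 and highest in WT replicate 2. Car12 was at 1.97 and 1.38 TPM in PAD4-DN and 0.930 and 2.08 TPM in WT. Pfkfb4 was at 2.03 and 1.33 TPM in PAD4-DN and 1.22 and 2.74 TPM in WT. The summed level of the hypoxia list was 5391 and 5994 TPM in PAD4-DN and 6996 and 4879 TPM in WT. The list did not separate the groups: 0 of the 25 genes were called and the median log2 fold change was 0.00. Fibroblast markers were lowest in WT replicate 1 by summed level. All 12 were tested, with none at 0, though Mfap5 had 1 count in WT replicate 1. Relative to the mean of the libraries their median was 0.58 and −0.71 on the log2 scale in PAD4-DN, and −0.89 and 0.96 in WT. The part of these genes' conditions and cells in the spread of Vegfa and Pgf was not tested. In bulk samples fewer cells of a type and less RNA per cell cannot be told apart.

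**Figure D4:**
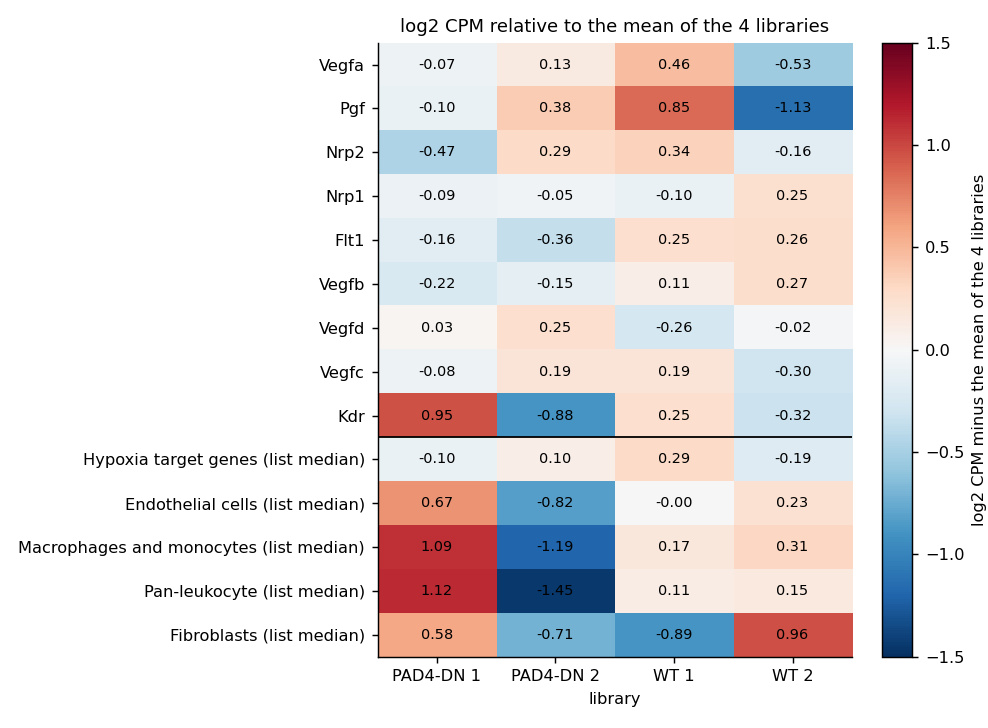
log2 CPM of the 9 tested VEGF genes relative to the mean of the 4 libraries, with the median of the same quantity for the hypoxia list and 4 marker lists under the line. Pgf spans −1.13 in WT replicate 2 to 0.85 in WT replicate 1, and Kdr is highest in PAD4-DN replicate 1, the library with the highest leukocyte, macrophage and endothelial markers.

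The genes with the pattern most like Pgf over the 4 libraries, by the root mean square difference of log2 CPM after centring each gene, were Vmn1r70 (0.091), Rph3a (0.091) and Nos2 (0.11). Vmn1r70 and Rph3a were at most at 0.879 and 1.14 CPM, where single counts shape the pattern. Nos2, the inducible nitric oxide synthase, was at 45.3 and 55.0 CPM in PAD4-DN and at 78.0 and 23.2 CPM in WT.

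Among the listed receptor and co-receptor genes, the neuropilins had the highest transcript levels. Nrp2 was at 265 and 447 CPM in PAD4-DN and at 464 and 327 CPM in WT, so each group held a high and a low library. Its log2 fold change was −0.15 (SE 0.30), 0.17 without PAD4-DN replicate 1 and −0.58 without PAD4-DN replicate 2. Nrp1 was at 53.0 and 54.4 CPM in PAD4-DN and at 52.5 and 66.9 CPM in WT. It varied least of the members, by 1.27-fold from the lowest library to the highest, with a log2 fold change of −0.15 (SE 0.16). Together, Nrp2 and Nrp1 made up 68.6% and 25.3% of the summed receptor and co-receptor TPM in PAD4-DN replicate 1 and 78.8% and 17.8% in PAD4-DN replicate 2, and 78.6% and 16.4% in WT replicate 1 and 68.2% and 25.8% in WT replicate 2.

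Nrp2 was split over 6 coding transcripts that end in 1 of 2 tails inside the cell. The forms with the b tail made up 27.5% and 24.9% of the TPM of all 6 in PAD4-DN and 29.1% and 26.1% in WT. The rest had the a tail, which ends in a motif for PDZ-domain partners. The most abundant form was Nrp2-202, of 926 codons, at 43.2% and 48.9% in PAD4-DN and 42.6% and 46.3% in WT. The shares overlapped between the groups for both quantities. Nrp1 reads fell almost wholly on the single coding transcript Nrp1-201, at 51.2 and 52.4 CPM in PAD4-DN and 50.1 and 64.7 CPM in WT.

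**Figure D5:**
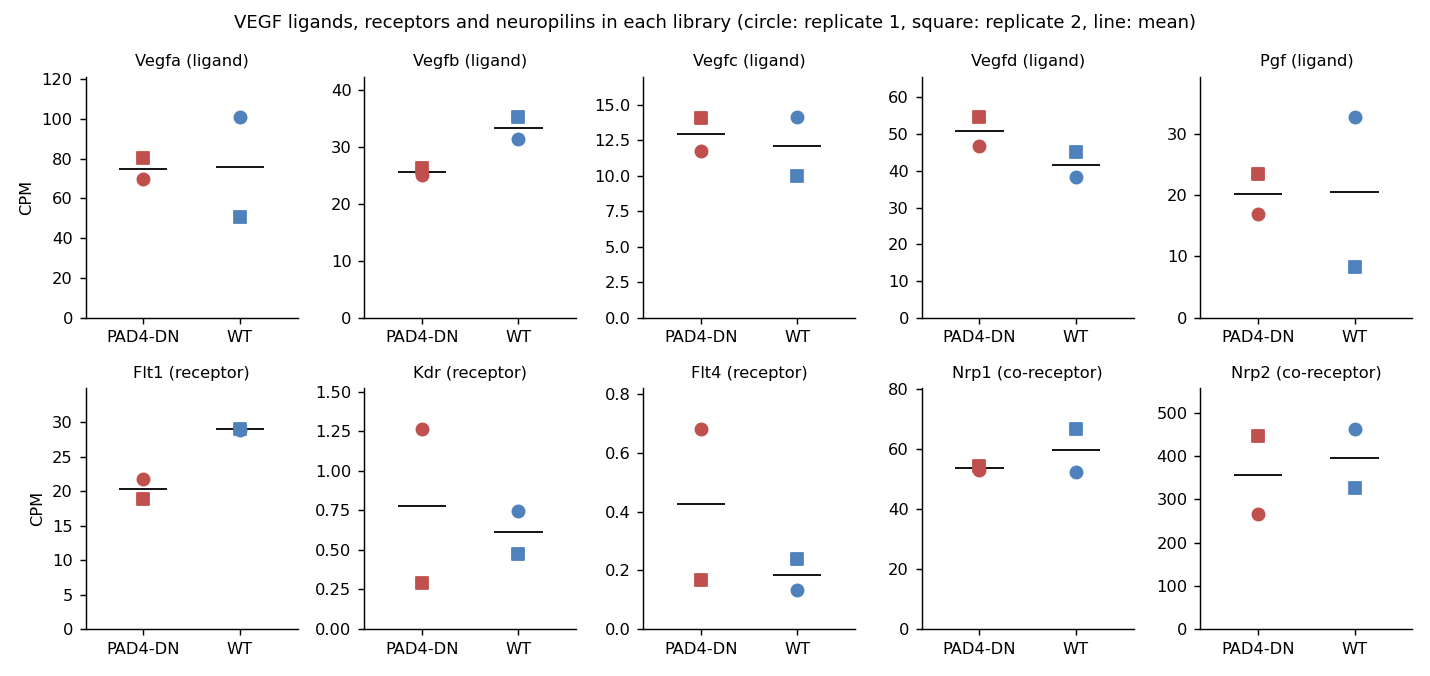
CPM of each VEGF ligand, receptor and neuropilin gene in each library, with PAD4-DN on the left and WT on the right (circle, replicate 1; square, replicate 2; line, group mean). The groups are separate for Flt1, Vegfb and Vegfd and overlap for the others; Flt4 was not tested.

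Kdr and Flt4, the kinases that carry the main vascular and lymphatic signals, were close to the limit of detection. Kdr had 26 and 7 counts in PAD4-DN and 17 and 12 counts in WT, and its log2 fold change of 0.34 (SE 0.81) became −1.05 without PAD4-DN replicate 1. Flt4 had 14 and 4 counts in PAD4-DN and 3 and 6 counts in WT, too few to be tested. Both were highest in PAD4-DN replicate 1. That library also had the highest summed level of the 16 endothelial genes, at 60.2 TPM, against 37.2 TPM in the other PAD4-DN library and 39.0 and 36.1 TPM in WT. Of the 16, 11 were tested, and none was at 0 in all libraries. Robo4 was at 0 in PAD4-DN replicate 1 and WT replicate 2, Sox17 in PAD4-DN replicate 2 and WT replicate 2, and Sox18 in PAD4-DN replicate 2. Egfl7 ran the other way from the sum, with 39.4 and 83.4 counts in PAD4-DN and 62.5 and 81.4 counts in WT. Much of the sum was Pecam1, at 41.7 and 24.3 TPM in PAD4-DN and 22.6 and 18.7 TPM in WT. The endothelial cadherin gene Cdh5 had 94 and 30 counts in PAD4-DN and 89 and 72 counts in WT. The 7 lymphatic endothelial genes, of which 3 were tested, summed to 6.84 and 1.31 TPM in PAD4-DN and 1.09 and 9.26 TPM in WT. Most of the higher sums was Pdpn, which fibroblasts also express, at 5.005 and 0.816 TPM in PAD4-DN and 0.326 and 8.76 TPM in WT. Mmrn1 was at 0 in every library, Lyve1 had 22 and 0 counts in PAD4-DN and 0 in both WT libraries, and Prox1 had at most 1 count in any library. The part of other cells in the Kdr and Flt4 counts was not tested. The genes most like Kdr in pattern were Csf2rb (root mean square difference 0.062), Slc1a3 (0.069) and Fermt3 (0.078). Csf2rb, a cytokine receptor chain of myeloid cells, was at 2.24 and 0.545 CPM in PAD4-DN and at 1.23 and 0.912 CPM in WT. Slc1a3 and Fermt3 were at most at 1.80 and 1.85 CPM. At such levels, and at the counts of Kdr, single counts shape the pattern.

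Other genes of the pathway were counted in the same fit, and 0 passed in either direction in any list. Of 29 genes of receptor signalling and trafficking, 26 were tested, with a median log2 fold change of −0.06 and 0 at an unadjusted p under 0.05. Gipc1, an adaptor that binds the neuropilin tail, had the smallest p, at 29.4 and 25.4 CPM in PAD4-DN and 35.4 and 33.2 CPM in WT. Of 19 genes of oxygen sensing and of Vegfa regulation, 17 were tested, with a median of 0.03 and 1 at an unadjusted p under 0.05, against 2.65% of all tested genes. This was Zfp36l1, an RNA-binding protein gene whose product destabilises Vegfa mRNA, at 89.2 and 92.1 CPM in PAD4-DN and 74.1 and 70.1 CPM in WT (log2 fold change 0.33, SE 0.11). In the hypoxia list 1 of 25 genes was at that level, against the same 2.65%. It was the lactate exporter gene Slc16a3, at 25.7 and 24.2 CPM in PAD4-DN and 40.4 and 29.9 CPM in WT.

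Among 12 class 3 semaphorins and plexins, which share the neuropilins with the VEGF ligands, 11 were tested, with a median log2 fold change of 0.15 and 2 at an unadjusted p under 0.05, where 2.65% of all tested genes were. The semaphorin gene Sema3c was at 31.8 and 43.4 CPM in PAD4-DN and 22.9 and 26.6 CPM in WT, a log2 fold change of 0.60 (SE 0.19). The plexin gene Plxna4 was at 35.9 and 36.2 CPM in PAD4-DN and 56.2 and 50.0 CPM in WT, a log2 fold change of −0.56 (SE 0.13). Both had adjusted p = 0.988 by edgeR.

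Of 9 genes that process VEGF-C and VEGF-D, 7 were tested, with a median log2 fold change of −0.11 and 0 at an unadjusted p under 0.05. Ccbe1, the cofactor for cleavage of VEGF-C, was abundant, at 91.6 and 128 TPM in PAD4-DN and 112 and 82.3 TPM in WT. The protease gene Adamts3, with which it acts, was at 1.02 and 0.648 TPM in PAD4-DN and 0.678 and 0.599 TPM in WT. Adamts14 of the same list was higher, at 20.7 and 23.0 TPM in PAD4-DN and 22.1 and 20.3 TPM in WT. Furin was at 37.0 and 32.5 TPM in PAD4-DN and 39.3 and 34.4 TPM in WT. The plasminogen gene Plg and the kallikrein gene Klk1 had 0 counts in every library, which allows up to 3 counts in each. Of 33 names on a list of other angiogenic genes, 32 were matched. The unmatched name, Ctgf, is an earlier name of Ccn2, which is also on the list. Of the list 26 genes were tested, with a median of 0.00 and 0 at an unadjusted p under 0.05. The smallest p belonged to Pdgfc, at 70.2 and 76.0 CPM in PAD4-DN and 55.4 and 63.5 CPM in WT.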

How the data were processed

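The submitters' processing notes name kallisto and GRCm39, with no version or settings. Tables with estimated counts, TPM, length and effective length for 117486 transcripts were deposited for each of 4 libraries, per the file headers. These deposited estimated counts carry no normalization, and the deposited TPM values sum to 1000000.

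Transcripts were matched without version to GENCODE M21 (116408 matched; the rest held at most 0.493% of counts and was left out). M21 is on an earlier build, so no coordinates are given. Counts were summed per gene and rounded. PAD4-DN was compared with WT by edgeR 4.0.16 in R 4.3.3 (TMM, filterByExpr, quasi-likelihood test, no replicate block, Benjamini-Hochberg adjustment over 13718 genes at 0.05). Alternatives used DESeq2 1.42.0, limma 3.58.1 (voom, and limma-trend with a pseudocount of 1 or 0.1 and a mean TPM of at least 1), other filters and scaling, and left-out libraries. The fits were tested on simulated data. Reads shared by similar transcripts were divided by kallisto's estimate. The protocol names no molecular identifiers, and a limit set from 0 counts therefore covers counting error alone.

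The members, gene lists and rule for named genes (all members; 2 genes of smallest p per list, of which those bearing on the family are printed; 3 genes most like each member spanning at least 1 on the log2 CPM scale) were chosen with earlier results of these data known.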

Additional observations from a re-analysis of the deposited data

How the results depend on the processing

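In all 13 alternatives 0 VEGF members passed a false discovery rate of 0.05, and 0 passed at 0.1. Over all genes 0 passed as reported and at 0.1, 11 with DESeq2, 10 with no low-count filter, and 0 to 2 with 1 library left out (1 without PAD4-DN replicate 1, 2 without WT replicate 2). The members' median log2 fold change ran from −0.21 without WT replicate 2 to 0.27 without WT replicate 1. Flt1, Vegfb and Vegfd kept their sign in 13 of 13 alternatives. Pgf turned positive in 8, of which 2 left out a library: 0.33 with limma-voom, 0.00126 at a mean of at least 5 CPM, 0.33 and 0.36 on log2(TPM + 1) and log2(TPM + 0.1), 0.27 with the replicate block and 0.25 with crossed numbers. In the same settings Vegfa was 0.0657, 0.00238, 0.15, 0.15, 0.0625 and 0.0604. With 1 library left out, log2 fold changes ran from −0.70 to 1.30 for Pgf, −0.43 to 0.56 for Vegfa, −0.58 to 0.17 for Nrp2, −0.32 to 0.0300 for Nrp1, −0.13 to 0.37 for Vegfc and −1.05 to 1.04 for Kdr. Kdr had no value in 3 settings whose filters removed it. The cause was not tested.

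The replicate numbers are not stated to mark a shared animal or batch. Deviations from the group means of same-numbered libraries correlated at −0.34 over 13718 genes. A replicate block gave 0 genes and 0 members, and the block with crossed numbers, added after the data were seen, gave 1 gene and 0 members. Over all genes the fitted log2 fold changes had a median SE of 0.20, with 2 libraries a group. Kdr and Flt4 rest on at most 26 counts in a library.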
